A study of Mus musculus with 22 samples.

Results

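Mice were injected with lipid nanoparticles loaded with a Dicer-substrate RNA, at 2 mg/kg or at 0.2 mg/kg, and the liver transcriptomes of both doses were compared 24 h later. The comparison took every library labelled with either dose, without those pretreated with BLT-1 (an inhibitor of a lipoprotein receptor), which left 3 and 8 of the 22 libraries of the series. It covered all 16469 genes of the table, of which 10752 passed a filter on low values and were tested. Both groups were perfused whole livers of C57BL6J mice, each liver a separate library from the 3' ends of mRNA, and both received the same kind of particle by injection. The labels give no sex, age or number of animals per liver. No particle without the RNA was among the groups used, so lipid and RNA cannot be told apart. The 7 controls, for which the labels give no treatment, and the 4 livers with BLT-1 entered the fit only to share the estimate of the spread. Livers keep the numbers of the labels, which are 3, 16 and 36 at 2 mg/kg and 4, 5, 17, 18, 30, 31, 38 and 39 at 0.2 mg/kg.

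Dicer-substrate RNAs are double-stranded RNAs that Dicer trims into small interfering RNAs, which then direct the cleavage of a matching mRNA. Particles in blood bind apolipoproteins and are taken up largely by hepatocytes, while liver macrophages and endothelial cells also take up particles and carry sensors of foreign RNA. Hepatocytes answer interleukin 6 and interleukin 1 with an acute phase response, in which the synthesis of serum amyloid, lipocalin and orosomucoid rises and that of transthyretin and of many metabolic enzymes falls. Mouse liver is also one of the most sex-biased tissues, since pulses of growth hormone in males and a steadier supply in females set separate groups of cytochrome P450, sulfotransferase and major urinary protein genes.

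Levels are CPM, the reads of a gene relative to the library's total, scaled on genes by the TMM method, and log2 fold changes are 2 mg/kg minus 0.2 mg/kg on log2(CPM + 1), with a standard error, which understates the change of genes at low levels. Libraries held 8327092 to 15101565 reads at 2 mg/kg and 8529057 to 13939588 at 0.2 mg/kg. Spike-in reads made up 5.64 ± 1.41% and 5.04 ± 1.23% of reads (SD, n = 3 and 8; exact two-sided permutation p = 0.497). Mitochondrial transcripts made up 15.7 ± 0.303% and 14.6 ± 0.743% (exact p = 0.0424, adjusted over 4 such tests 0.0566), and leaving out single livers moved that exact p as high as 0.133. Nothing in the labels says whether the livers were prepared together, so p-values measure the spread between these livers only.

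At an adjusted p below 0.05 in limma, 324 of 10752 genes were higher at 2 mg/kg (3.01%) and 322 were lower (2.99%). The 3 and 8 libraries did not overlap for 252 of the higher and 234 of the lower genes, where 825 of all genes tested (7.67%) had groups that did not overlap. Most differences were small, with 48 genes over 2-fold higher and 27 over 2-fold lower. Of those 48, 12 belong to the acute phase list and 11 to a list of genes with higher levels in female liver. Of the 27, 11 belong to the list of genes with higher levels in male liver and 11 are major urinary protein genes. These 2 counts were made separately and can share genes, so they cannot be added. The edgeR quasi-likelihood test of recovered reads called 309 genes higher (2.87% of 10766) and 284 lower (2.64%), and 573 genes were called by both tools in the same direction. On the deposited spike-in scale, which spread the libraries of a group more widely, limma called 23 genes higher (0.208%) and 12 lower (0.109%) of 11034. The calls on that scale in the gene lists were 10 female-biased, 7 acute phase and 4 male-biased genes and 1 each in the interferon gamma, heat shock, X-inactivation escape, glucocorticoid response and purine lists, and the other lists held 0. The median over all genes was log2 -0.00065 after TMM scaling and -0.09 on the spike-in scale. Without liver 3 the counts were 140 higher and 89 lower, and without liver 36 they were 157 and 189.

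**Figure D1:**
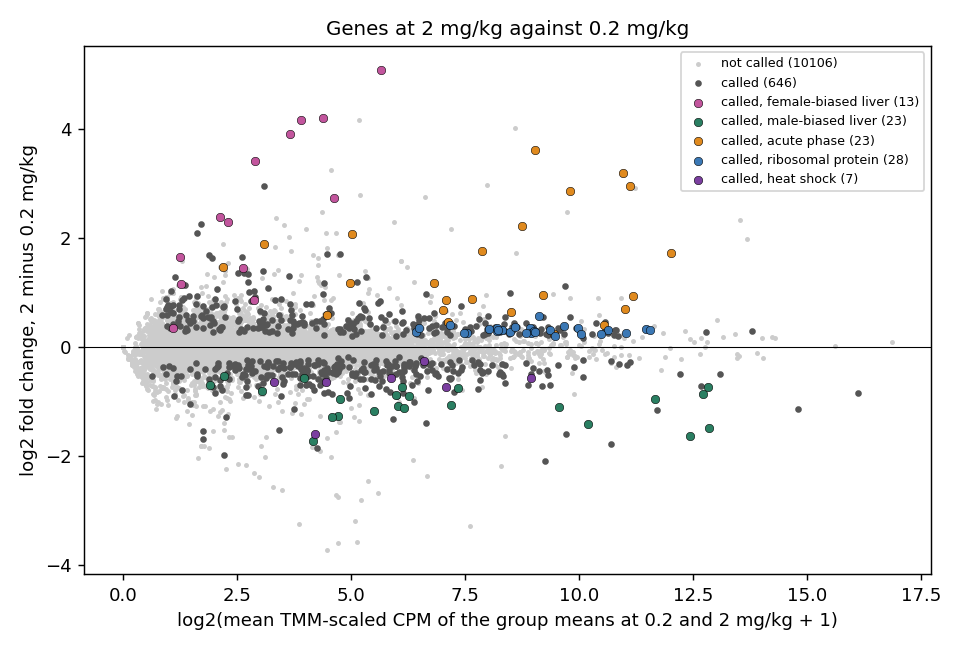
Each point is 1 of 10752 genes, with the log2 of the mean CPM + 1 over both doses on the horizontal axis and the log2 fold change of 2 mg/kg minus 0.2 mg/kg on the vertical axis. Grey points are the genes not called and dark points the 646 called, and 5 gene lists are coloured, with the highest fold changes held by female-biased and acute phase genes.

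Hprt (ENSMUSG00000025630.9), the purine salvage enzyme that the column names give as the target of the RNA, was measured first. It held 15.4, 17.6 and 13 CPM in livers 3, 16 and 36, against 26.02 to 30.9 (median 27.5) in the 8 livers at 0.2 mg/kg. Every liver at the higher dose lay below every liver at the lower dose, and the groups did not overlap. The level at 2 mg/kg was 54.9% of that at 0.2 mg/kg as a ratio of geometric means (log2 difference -0.87, exact two-sided permutation p = 0.00606, the smallest p these group sizes allow). In the fit across all genes the log2 fold change was -0.82 ± 0.11 (adjusted p = 5.38e-05). On the spike-in scale it was -0.94 and not called in limma (adjusted p = 0.659), while the exact test of the level there gave p = 0.0121. Among livers with neighbouring numbers, liver 3 differed from the mean of 4 and 5 by -0.80, liver 16 from 17 and 18 by -0.61, and liver 36 from 38 and 39 by -1.07 on the log2 scale. Of the other 18 tested genes of purine salvage and synthesis, Nt5e alone was called, an ectoenzyme that releases adenosine from AMP. It held 1.65, 1.73 and 2.05 CPM at 2 mg/kg and 0.1004 to 0.524 (median 0.405) at 0.2 mg/kg (1.04 ± 0.13, adjusted p = 4.05e-05). Every one of the 19 other libraries held under 1 CPM, so Nt5e passed the filter through the 3 livers where it was high and was not tested when any 1 of them was left out; its call is a description. None of 16 tested genes of the RNA interference machinery passed the test in limma or edgeR, with 1 of them at an unadjusted p below 0.05 in limma.

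Sex-linked transcripts also separated the doses, and this bears on the Hprt result above and on every result that follows. Xist, a noncoding RNA that silences 1 X chromosome in females, gave 39, 39 and 57 reads in livers 3, 16 and 36, and 0 to 3 reads in every other liver of the series. The 4 Y-linked genes tested (Ddx3y, Eif2s3y, Kdm5d and Uty) summed to 14.5, 15.03 and 14.2 CPM at 2 mg/kg and to 27.3 to 34.4 at 0.2 mg/kg. That is a mean of 14.6 ± 0.419 against 29.97 ± 2.65, or 48.6% (exact two-sided p = 0.00606). All 3 livers of the higher dose thus carried both Xist and Y-linked reads, at a Y-linked level below that of every other library. Ddx3y, an RNA helicase, held 6.48, 8.88 and 7.27 CPM against 16.4 to 18.7 (median 17.8) (-1.13 ± 0.07, adjusted p = 5.76e-09), and Eif2s3y, a subunit of a translation initiation factor, held 3.84, 3.32 and 4.02 against 6.896 to 8.86 (median 7.46) (-0.88 ± 0.13, adjusted p = 0.00045). Kdm5d, a histone demethylase, and Uty, a Y-linked relative of another histone demethylase, were at or under 3.51 CPM in these 3 livers and were not called (adjusted p = 0.295 and adjusted p = 0.607). Eif2s3x, the X-linked copy of Eif2s3y that escapes X inactivation, was higher, at 4.28, 3.61 and 4.45 against 2.53 to 3.83 (median 2.85) (0.38 ± 0.09, adjusted p = 0.0158). In limma that call was lost without liver 3 (adjusted p = 0.112) or liver 36 (adjusted p = 0.124). The labels give the livers no sex, and no liver at 2 mg/kg lacked the pattern. Dose and the sex-linked pattern therefore cannot be told apart in Hprt or in any gene below.

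Genes with higher levels in female liver were higher at 2 mg/kg, 13 of 20 tested, and 0 were lower (12 and 0 in edgeR; median log2 fold change 1.31). The list holds 33 genes. A gene seen in the 3 livers of the higher dose alone passed the filter while one seen in fewer did not, so the share of called members is no support. Sult2a1, Sult2a5, Sult2a2 and Cyp2b9, given below, passed only through those 3 livers, since too few other libraries reached 1 CPM. Their calls are therefore descriptions. Cyp3a41a, a steroid-hydroxylating P450, held 51.5, 92.8 and 147 CPM against 0 to 3.17 (median 2.35) (5.09 ± 0.47, adjusted p = 8.14e-07). The sulfotransferase Sult3a1 held 30.2, 30.1 and 56.2 against 0 to 2.095 (median 1.55) (4.20 ± 0.37, adjusted p = 3.9e-07). Sult2a1, which sulfates steroids and bile acids, held 9.99, 24.1 and 34.6 against 0 to 1.05 (median 0.546) (3.92 ± 0.28, adjusted p = 1.75e-08). None of these groups overlapped, and the lowest values at 0.2 mg/kg were those of livers 4 and 5 in each gene. Its near copies Sult2a5 and Sult2a2 held 9.88, 40.3 and 32.4 and 9.66, 8.52 and 19.6 in livers 3, 16 and 36, and their highest values at 0.2 mg/kg were 1.15 and 0.786. Cyp2a4, which hydroxylates testosterone, was highest in liver 3 and lowest in liver 36, at 54.8, 41.8 and 30.3 against 3.83 to 6.53 (median 5.405) (2.74 ± 0.16, adjusted p = 1.53e-09). Cyp2b9, another female-biased P450, held 6.15, 7.22 and 8.296 against 0.444 to 0.883 (median 0.652) (2.30 ± 0.16, adjusted p = 1.75e-08). The 3 livers did not share 1 order among these genes. The untested female-biased genes showed this more sharply, and the next pair was picked after the values were seen. A1bg, a plasma glycoprotein, held 0.329, 9.75 and 3.08 CPM, with a highest value of 0.262 at 0.2 mg/kg. Cyp3a41b, a near copy of Cyp3a41a, was detected in liver 36 alone, at 6.07 CPM.

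The male-biased list was lower, with 23 of 31 tested genes called and 0 higher (23 and 0 in edgeR; median -0.88). The major urinary proteins are pheromone carriers made by the liver, and 14 of 21 tested Mup genes were lower and 0 higher. Mup7 held 1707, 3847 and 2698 CPM against 4168 to 10203 (median 8894) (-1.62 ± 0.25, adjusted p = 0.000491), and the lowest of the 8 was liver 5. Mup14, one of the most abundant transcripts of these livers, held 13702, 23181 and 17197 against 25247 to 44865 (median 40246) (-1.13 ± 0.17, adjusted p = 0.000384). In both, liver 3 was lowest and liver 16 highest of the 3 at 2 mg/kg. The same order held for Serpina1e, an alpha-1 antitrypsin copy, at 483, 806 and 642 against 1219 to 1949 (median 1751) (-1.41 ± 0.19, adjusted p = 9.77e-05), and for Nat8f5, an N-acetyltransferase family member, at 3.73, 11.8 and 7.87 against 21.5 to 30.1 (median 26.8) (-1.72 ± 0.19, adjusted p = 1.17e-05). Slco1a1, an organic anion transporter, held 9.55, 17.5 and 12.7 against 28.4 to 41.01 (median 31.9) (-1.27 ± 0.20, adjusted p = 0.000552), and Cyp7b1, an oxysterol hydroxylase, 18.9, 36.3 and 26.3 against 36.3 to 74.2 (median 64.9) (-1.18 ± 0.21, adjusted p = 0.00164). Cyp4a12a, an omega-hydroxylase of fatty acids, held 40.7, 54.1 and 36.9 against 71.7 to 86.5 (median 83.3) (-0.87 ± 0.09, adjusted p = 5.77e-06). Groups did not overlap in any of these, although livers 16 and 5 nearly met for Cyp7b1. Without liver 3 the list kept 15 calls, without liver 36 it kept 19, and on the spike-in scale there were 4. Values of single Mup, Orm, Saa, Sult2a, Serpina1, Cyp2a, Cyp2b, Cyp3a41, Gbp, Hspa1 and H2 genes are uncertain, because near-identical copies can share reads.

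**Figure D2:**
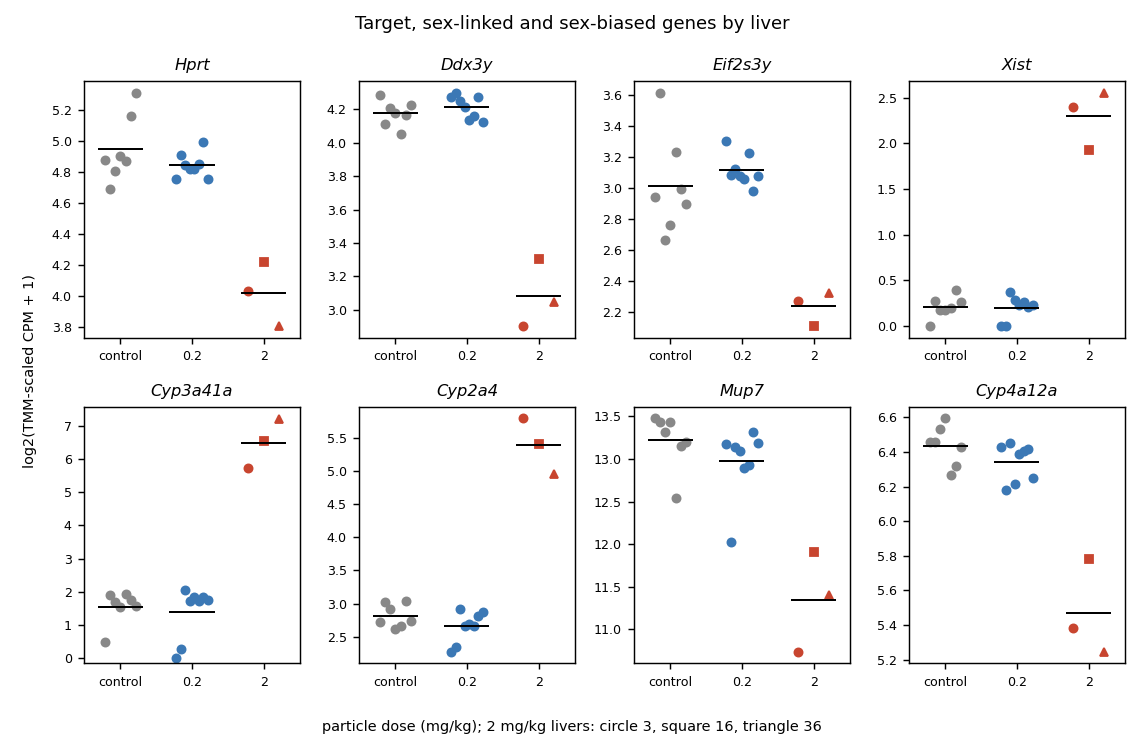
Levels of Hprt, the Y-linked Ddx3y and Eif2s3y, Xist, the female-biased Cyp3a41a and Cyp2a4 and the male-biased Mup7 and Cyp4a12a as log2(CPM + 1) per liver, with 7 controls, 8 livers at 0.2 mg/kg and 3 at 2 mg/kg; black bars are means and the vertical axes do not start at 0. The 3 livers at 2 mg/kg lie apart from the 8 at 0.2 mg/kg in all 8 genes.

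The acute phase list was higher at 2 mg/kg: 23 of 36 tested genes were higher and 0 were lower, in limma and in edgeR alike, with a median log2 fold change of 0.92 against -0.00065 over all genes. Among the most changed were Lcn2, a lipocalin that withholds bacterial iron carriers, Saa3, a serum amyloid A apolipoprotein, and Orm2, an orosomucoid that carries drugs and lipids in plasma. The promoters of these 3 genes are shown because they are among the most changed genes outside the sex-biased lists. Each line gives the 250 bases before the RefSeq start of the gene, with capitals for letters that match the C/EBP motif TTGCNNAA or the interferon response motif, 2 copies of GAAA with 2 bases between them, on either strand.
Saa3 (GRCm38.p6, chr7:46715677-46715926, minus strand): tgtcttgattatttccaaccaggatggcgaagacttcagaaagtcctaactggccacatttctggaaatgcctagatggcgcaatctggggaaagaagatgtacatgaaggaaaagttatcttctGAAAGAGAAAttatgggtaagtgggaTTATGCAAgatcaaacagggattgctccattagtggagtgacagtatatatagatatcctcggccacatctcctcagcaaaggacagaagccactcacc
Lcn2 (GRCm38.p6, chr2:32387740-32387989, minus strand): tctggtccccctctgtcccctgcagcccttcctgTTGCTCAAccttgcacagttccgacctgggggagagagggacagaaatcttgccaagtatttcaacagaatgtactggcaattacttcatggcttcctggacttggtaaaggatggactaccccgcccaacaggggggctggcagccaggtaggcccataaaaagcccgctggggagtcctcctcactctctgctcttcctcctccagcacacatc
Orm2 (GRCm38.p6, chr4:63362199-63362448, plus strand): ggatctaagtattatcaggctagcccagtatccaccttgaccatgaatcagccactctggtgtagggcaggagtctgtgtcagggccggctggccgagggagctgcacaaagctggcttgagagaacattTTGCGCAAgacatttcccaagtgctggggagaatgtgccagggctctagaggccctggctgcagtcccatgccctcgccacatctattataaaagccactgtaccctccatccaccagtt
The C/EBP motif, named for the factors that carry much of the acute phase response, lies 99 to 92 bases before the start of Saa3, 216 to 209 before that of Lcn2 and 120 to 113 before that of Orm2. Saa3 also holds an interferon response motif 125 to 116 bases before its start. Of all 32851 promoter windows of this length in the RefSeq table, 9.56% hold the C/EBP motif and 2.98% the interferon response motif. Of the 23 called acute phase genes, 18 had a window, of which 8 held the C/EBP motif, 3 the STAT motif TTCNNNGAA (7.02% of all windows) and 2 the NF-kB motif, GGG and TTTCC with 2 bases between them (1.41%). A match in these letters is a description of the sequence only.

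Saa3 (ENSMUSG00000040026.9) held 3792, 4252 and 2490.5 CPM in livers 3, 16 and 36 against 86.3 to 751 (median 494) at 0.2 mg/kg (3.20 ± 0.72, adjusted p = 0.00922). Lcn2 (ENSMUSG00000026822.15) held 1121, 657 and 1083 against 16.2 to 154 (median 104) (3.62 ± 0.66, adjusted p = 0.00194). Orm2 (ENSMUSG00000061540.4) held 1442, 1703 and 1441 against 37.8 to 441 (median 274) (2.87 ± 0.68, adjusted p = 0.012). In each the groups did not overlap, and the lowest values were those of livers 4 and 5. In limma the call for Orm2 was lost without liver 3 (adjusted p = 0.0697) or liver 36 (adjusted p = 0.0549), and that for Saa3 without liver 3 (adjusted p = 0.0666). Orm1 held 6691, 5632 and 6603 against 1065 to 2499.9 (median 2176) (1.73 ± 0.30, adjusted p = 0.00135), and Orm3 51.2, 45.4 and 58.1 against 6.195 to 16.4 (median 12.1) (2.08 ± 0.35, adjusted p = 0.000957). Apcs, a pentraxin found in amyloid deposits, was at 564, 793 and 762 against 69.9 to 179 (median 166) (2.23 ± 0.42, adjusted p = 0.00214). Mt1, a metallothionein that binds zinc, reached 3423, 3907 and 4180.3 against 127 to 1146 (median 563) (2.96 ± 0.87, adjusted p = 0.0486), a call that edgeR did not make (adjusted p = 0.0602) and that limma lost without any 1 of the 3 livers (adjusted p = 0.161, 0.0985 and 0.162 without 3, 16 and 36). Controls held 172 to 6188 CPM, and controls 28 and 29, at 5131 and 6188, lay above every liver at 2 mg/kg. Saa1 and Saa2, the main circulating forms, are given for their abundance and were picked after their values were seen. They reached 13159.5, 26187 and 22197 and 13293, 23573 and 19628 CPM against 986 to 10104 (median 6057) and 425 to 9288 (median 4495) at 0.2 mg/kg, and neither was called (adjusted p = 0.141 and adjusted p = 0.133). Their groups did not overlap, and controls ranged from 419 to 13393 and from 252 to 11692 CPM. With the animal number range as a term both were called (adjusted p = 0.013 and 0.0144).

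Of 23 tested genes of the iron and heme list 5 were higher (21.7%) and 1 was lower (4.35%), with 6 and 1 in edgeR. Over all genes tested 3.01% were higher and 2.99% lower. On the spike-in scale the list held 0 calls and its median changed sign (0.10 by TMM, -0.03 by spike-ins). Hpx, which binds free heme, held 2964, 2874 and 3253 against 1094 to 1821 (median 1654) (0.93 ± 0.21, adjusted p = 0.00862), and the copper oxidase Cp held 835, 593 and 948 against 315 to 447 (median 402) (0.96 ± 0.11, adjusted p = 1.61e-05). The iron carrier Trf held 1541, 1889 and 1841 against 1122 to 1377 (median 1279) (0.47 ± 0.09, adjusted p = 0.00305). Groups did not overlap for the 3 of them, and the call for Hpx was lost without liver 3 (adjusted p = 0.0521) or liver 36 (adjusted p = 0.0588). Serpina3n, a protease inhibitor, held 404, 356 and 328 against 61.6 to 137 (median 113) (1.78 ± 0.49, adjusted p = 0.0346), and its call was lost in limma without any 1 of the 3 livers (adjusted p = 0.165, 0.0725 and 0.105 without 3, 16 and 36). Controls held 53.2 to 501 CPM of it, and controls 28 and 29, at 417 and 501, lay above every liver at 2 mg/kg. Of the 10 genes of the list of negative acute phase proteins, 2 were lower and 1 higher. Ttr, the thyroxine carrier transthyretin, was at 3531, 4402 and 4008 against 5016 to 6054 (median 5538) (-0.49 ± 0.09, adjusted p = 0.00164), and Rbp4, the retinol carrier, at 1341, 1694 and 1544 against 1659 to 1954 (median 1855) (-0.26 ± 0.08, adjusted p = 0.0484), where the groups overlapped and the call was lost without liver 3 (adjusted p = 0.417) or liver 36 (adjusted p = 0.12). The count of acute phase calls was 10 without liver 3, 16 without liver 16, 9 without liver 36, 12 without livers 4 and 5, and 7 on the spike-in scale. It was 30 without controls 28 and 29, 29 with only the 11 libraries compared, 28 in DESeq2 and 27 in limma voom. The sum of all acute phase levels was 65558, 90705 and 83001 CPM in livers 3, 16 and 36, 12654 to 37745 at 0.2 mg/kg and 11127 to 60810 in controls. The sex-linked pattern moved with the acute phase list in the same 3 livers, and its part in the result cannot be told apart.

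Most of the called receptors and signals of inflammation were higher in livers 3 and 36 than in liver 16. Cd14, which presents bacterial lipid to its receptor, held 23.1, 3.901 and 12.1 CPM against 0.984 to 3.44 (median 2.33) (1.89 ± 0.47, adjusted p = 0.0176). Il1rn, the antagonist of the interleukin 1 receptor, held 8.45, 3.395 and 5.47 against 0.641 to 1.78 (median 1.56) (1.47 ± 0.23, adjusted p = 0.000497). In both, liver 16 lay nearest to the range of the lower dose and the groups did not overlap. Controls held 2.18 to 13.01 CPM for Cd14, where controls 28 and 29 lay above liver 16, and 0.737 to 2.16 for Il1rn. Of 20 tested cytokine and chemokine genes 4 were higher (20%, against 3.01% of all genes tested) and 0 lower (3 and 0 in edgeR). The monocyte attractant Ccl2 held 12.3, 3.97 and 19.1 against 3.14 to 5.87 (median 3.92) (1.09 ± 0.32, adjusted p = 0.0496), so liver 16 lay within the range of the lower dose. Ccl7, another monocyte attractant, held 3.18, 2.60 and 4.02 against 0.854 to 2.21 (median 1.55) (0.76 ± 0.22, adjusted p = 0.0462; edgeR adjusted p = 0.0979). The adhesion molecule Icam1 held 5.71, 2.67 and 6.07 against 1.78 to 2.78 (median 2.43) (0.74 ± 0.17, adjusted p = 0.0107), and the neutrophil attractant Cxcl2 3.404, 1.30 and 1.28 against 0.353 to 1.39 (median 0.545) (0.77 ± 0.20, adjusted p = 0.0249). Calls for Cd14, Ccl2, Ccl7 and Icam1 were lost in limma without liver 3 or without liver 36, and that for Cxcl2 without liver 3 (adjusted p = 0.332). For Cd14 the values were 0.225 and 0.0947, for Ccl2 0.265 and 0.377, for Ccl7 0.163 and 0.241, and for Icam1 0.13 and 0.126. Of 20 tested genes of interleukin 6 signalling and its feedback, 0 were higher and 1 was lower (5%, against 2.99% of all genes tested).

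Neutrophil transcripts followed the same order of livers. S100a9, a calcium-binding protein that fills the cytosol of neutrophils, held 52.7, 18.7 and 52 CPM against 7.87 to 13.9 (median 10.6) (1.71 ± 0.49, adjusted p = 0.0421), with controls at 2.18 to 25.2. It was the 1 called gene of 4 neutrophil genes tested, of 16 listed. The whole list summed to 114, 41.3 and 104 CPM in livers 3, 16 and 36, to 16.9 to 35.5 at 0.2 mg/kg and to 8.17 to 60.9 in controls. The call for S100a9 was lost in limma without liver 3 (adjusted p = 0.259) or liver 36 (adjusted p = 0.211). In whole tissue, a larger number of cells of a type and more RNA per cell cannot be told apart. The part of neutrophils in the acute phase result was not tested, and the neutrophil list was high in the same 3 livers.

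Of 38 tested type I interferon genes 2 were higher (5.26%) and 0 lower in limma. This share was near the 3.01% of all genes tested that were higher. The edgeR test called 5 higher and 0 lower, and limma voom called 8 higher. In limma 15 had an unadjusted p below 0.05, and the list's median was 0.25. Ifit1, which binds viral RNA that lacks a methylated cap, was the more changed of the 2 called in limma. The sequence before it is shown for that reason, with both matches to the interferon response motif in capitals.
Ifit1 (GRCm38.p6, chr19:34640639-34640888, plus strand): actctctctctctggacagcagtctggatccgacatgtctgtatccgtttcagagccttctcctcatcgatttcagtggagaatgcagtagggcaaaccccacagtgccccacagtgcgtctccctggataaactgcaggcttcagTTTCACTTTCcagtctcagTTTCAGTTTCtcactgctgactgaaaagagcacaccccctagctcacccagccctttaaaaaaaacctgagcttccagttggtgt
The matches lie 104 to 95 and 85 to 76 bases before the start. Ifit1 (ENSMUSG00000034459.9) held 53.6, 19 and 76.1 CPM against 15.3 to 22.1 (median 17.7) (1.20 ± 0.27, adjusted p = 0.00909), and Usp18, which removes ISG15 from proteins and dampens interferon signalling, held 13.2, 7.15 and 16.3 against 3.999 to 7.69 (median 5.92) (0.87 ± 0.22, adjusted p = 0.0171). Liver 16 lay within the range of the lower dose in both, and livers 3 and 36 lay above it. The abundant Isg15 itself, picked after its values were seen, held 273, 82.8 and 272 against 97.2 to 211 (median 118) and was not called (adjusted p = 0.58), with liver 16 below the range of the lower dose and the other two above it. Without liver 16 there were 12 calls in the list, and without liver 3 (adjusted p = 0.0978 for Ifit1 and 0.13 for Usp18) or liver 36 (0.126 and 0.177) there were 0, as on the spike-in scale. Controls held less of these transcripts, with 4.36 to 9.28 CPM for Ifit1, 1.67 to 3.91 for Usp18 and 10.1 to 39.7 for Isg15.

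Genes that respond mainly to interferon gamma were lower at 2 mg/kg in 4 of 30 cases and higher in 0 (4 and 0 in edgeR, median -0.20). The lower genes were 13.3% of those tested, against 2.99% of all genes. Gbp10, a guanylate-binding protein, held 0.329, 0.433 and 0.941 CPM against 2.56 to 9.51 (median 3.54) (-1.68 ± 0.28, adjusted p = 0.00079), with controls at 0 to 1.13. The higher dose thus lay within the range of the controls and apart from all 8 livers of the lower dose. Iigp1, an immunity-related GTPase that attacks vacuoles of parasites, held 142, 150.2 and 197 against 227 to 322 (median 279) (-0.76 ± 0.12, adjusted p = 0.000702), with controls at 111 to 152. The immunoproteasome subunit genes Psmb9 and Psmb10 lay between the controls and the lower dose. Psmb9 held 30.4, 25.4 and 28.7 against 38.7 to 75.3 (median 44.7) (-0.75 ± 0.17, adjusted p = 0.00918) and 14 to 21.9 in controls, and Psmb10 held 121, 104 and 121 against 151 to 201 (median 172) (-0.58 ± 0.12, adjusted p = 0.00534) and 62.1 to 91.3. The chemokine Cxcl9, which draws T cells and was picked after its values were seen, had groups that did not overlap, at 11.2, 25.6 and 16.1 against 28.98 to 121 (median 36.4), and was not called (-1.27 ± 0.40, adjusted p = 0.0655). It was called without liver 16 (adjusted p = 0.0414). Calls in this list numbered 4 to 5 in each fit that left out 1 liver, and 1 on the spike-in scale.

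Antigen presentation showed the same direction for some members. B2m, the light chain of class I molecules, held 1737, 1900.4 and 2013 CPM against 2286 to 2479 (median 2339.7) (-0.33 ± 0.06, adjusted p = 0.0016), and the liver-secreted class I gene H2-Q10 held 395, 497 and 439.6 against 540.3 to 612 (median 583) (-0.38 ± 0.06, adjusted p = 0.000552). Neither had overlapping groups. Of 12 tested class I genes 3 were lower (25%) and 2 higher (16.7%), and both that were higher, Calr and Pdia3, are chaperones that also fold other proteins. Of 7 class II genes 2 were lower (28.6%) and 0 higher. Over all genes tested 2.99% were lower and 3.01% higher. H2-Ab1, a class II chain of antigen-presenting cells, held 13.8, 16.5 and 11.1 against 14.5 to 26.2 (median 20.3) (-0.52 ± 0.14, adjusted p = 0.0251), and its call was lost without liver 3 (adjusted p = 0.11) or liver 36 (adjusted p = 0.216).

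**Figure D3:**
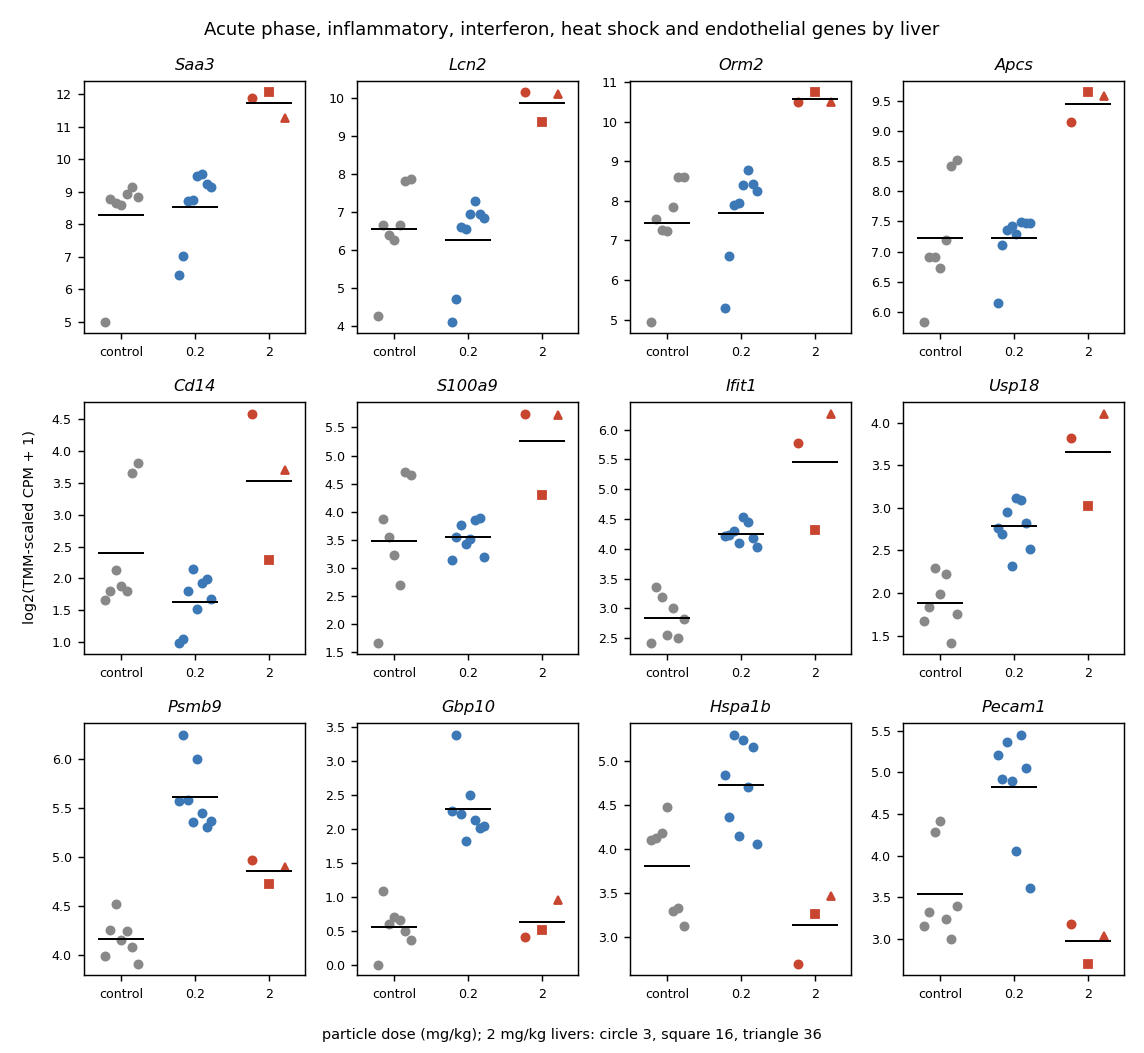
Levels of acute phase (Saa3, Lcn2, Orm2, Apcs, Cd14), neutrophil (S100a9), interferon (Ifit1, Usp18, Psmb9, Gbp10), heat shock (Hspa1b) and endothelial (Pecam1) genes as log2(CPM + 1) per liver in 7 controls, 8 livers at 0.2 mg/kg and 3 at 2 mg/kg, with black bars for means and vertical axes that do not start at 0. Liver 16 (square) lies near the lower dose in Cd14, Ifit1 and Usp18, while all 3 livers lie below the lower dose in Psmb9, Gbp10, Hspa1b and Pecam1.

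Heat shock genes were lower at 2 mg/kg than at 0.2 mg/kg, and the controls overlapped the higher dose. The list summed to 2372, 1950 and 2264 CPM in livers 3, 16 and 36. It summed to 2631 to 3224 at 0.2 mg/kg and to 1808.5 to 2416 in controls. Of 14 tested, 7 were lower and 0 higher (8 and 0 in edgeR, median -0.56). Hspa1b, an inducible HSP70 that refolds damaged proteins, was the most changed, and its upstream sequence is shown with the heat shock motif GAANNTTC in capitals.
Hspa1b (GRCm38.p6, chr17:34959239-34959488, minus strand): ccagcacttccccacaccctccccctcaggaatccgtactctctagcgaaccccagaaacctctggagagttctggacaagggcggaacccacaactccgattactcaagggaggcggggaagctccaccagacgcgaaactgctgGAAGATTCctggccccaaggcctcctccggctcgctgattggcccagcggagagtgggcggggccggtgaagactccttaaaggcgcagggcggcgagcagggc
The motif lies 104 to 97 bases before the start, and 6.69% of all windows hold it. Of the 7 called genes 6 had a window and 3 of those held the motif. Hspa1b (ENSMUSG00000090877.4) held 5.49, 8.596 and 10.1 CPM against 15.6 to 38.3 (median 26.4) (-1.58 ± 0.30, adjusted p = 0.00262), with 7.75 to 21.2 in controls. Hspb1, a small heat shock protein, held 105, 96.9 and 101 against 117 to 212 (median 167) (-0.73 ± 0.17, adjusted p = 0.0107) and 73.7 to 124 in controls. The HSP90 gene Hsp90aa1 held 464, 309 and 419 against 481 to 652 (median 588) (-0.57 ± 0.12, adjusted p = 0.00482), and the HSP70 partner Dnaja1 40.2, 45.7 and 52.5 against 57.3 to 90.9 (median 64.7) (-0.56 ± 0.14, adjusted p = 0.0164). Controls held 289 to 399 CPM for Hsp90aa1 and 41.8 to 62.3 for Dnaja1. In these 4 genes the 3 livers lay below all 8 of the lower dose. Calls for Hspb1 (adjusted p = 0.0568) and Dnaja1 (adjusted p = 0.154) were lost without liver 3. The list had 3 calls without liver 3, 4 without liver 16, 9 without liver 36 and 1 on the spike-in scale.

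Genes of protein folding and export in the endoplasmic reticulum were higher at 2 mg/kg than at 0.2 mg/kg, and the controls overlapped the higher dose. The list's median log2 difference from the mean at 0.2 mg/kg was 0.35, 0.26 and 0.54 in livers 3, 16 and 36. In controls it was 0.10 to 0.65. Of 24 tested genes of the unfolded protein response list 10 were higher and 0 lower, in limma and in edgeR (median 0.43). The lectin chaperone Calr held 331, 276 and 321 CPM against 193 to 219.6 (median 207) (0.58 ± 0.11, adjusted p = 0.00182), and the disulfide isomerase Pdia6 86.6, 81.4 and 111 against 64.97 to 74.1 (median 68.5) (0.43 ± 0.08, adjusted p = 0.0016). Sec61b, a part of the channel that takes proteins into the endoplasmic reticulum, held 236, 266 and 282 against 167 to 194 (median 182) (0.51 ± 0.06, adjusted p = 1.61e-05). Selenos, which helps to remove misfolded proteins, held 107, 95.7 and 101 against 68.4 to 83.6 (median 75.1) (0.43 ± 0.09, adjusted p = 0.00724). The groups did not overlap in these 4 genes, and the call for Selenos was lost without liver 3 (adjusted p = 0.0772). Controls held 186 to 307 CPM for Calr, 67.7 to 82.7 for Pdia6, 186 to 215 for Sec61b and 78.6 to 112 for Selenos. They overlapped the livers at 2 mg/kg in all but Sec61b. Of 14 tested genes of the integrated stress response, which includes ATF4 targets, 0 were called in limma or edgeR, with 3 at an unadjusted p below 0.05 in limma. The unfolded protein response list kept 6 calls without liver 3, 9 without liver 16 and 5 without liver 36, had 16 without controls 28 and 29, and had 0 on the spike-in scale.

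Ribosomal protein genes were higher by small and even amounts. Of 35 listed genes 28 were higher and 0 lower, in limma and in edgeR, with a median of 0.29, and of all 84 tested genes with Rpl or Rps symbols 63 were higher and 0 lower. Rpl13a, of the large subunit, held 751, 608 and 636 CPM against 412 to 479 (median 452) (0.57 ± 0.07, adjusted p = 2.64e-05), with 475 to 559 in controls. Rpl32 held 1247, 1090.4 and 1087 against 824 to 949 (median 879.8) (0.36 ± 0.05, adjusted p = 0.000308) and 955 to 1107 in controls, and Rps29, of the small subunit, held 3493, 3129 and 3447 against 2604 to 2789.8 (median 2699) (0.31 ± 0.04, adjusted p = 9.77e-05) and 2885 to 3192. In each of the 3 the controls reached levels between or overlapping those of the doses. Zfas1, a noncoding host of small nucleolar RNAs, lay in the other direction, at 22.4, 19.7 and 19.2 against 26.4 to 53.4 (median 40.97) (-0.92 ± 0.20, adjusted p = 0.00645). The listed genes called numbered 10 without liver 3, 30 without liver 16, 18 without liver 36 and 0 on the spike-in scale.

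Enzymes of drug metabolism were lower, with 18 of 45 tested genes lower and 1 higher (17 and 1 in edgeR; median -0.27). Carboxylesterases hydrolyse esters of drugs and lipids, and Ces2a held 29.6, 47.3 and 41.7 CPM against 63.2 to 73.2 (median 66.4) (-0.77 ± 0.12, adjusted p = 0.00042). Ces3a held 209, 309 and 258 against 370.0 to 421 (median 407) (-0.65 ± 0.10, adjusted p = 0.000454). The glutathione transferase Gsta3 held 417, 585 and 508 against 725 to 889 (median 819.8) (-0.70 ± 0.12, adjusted p = 0.000957). Liver 3 was the lowest and liver 16 the highest of the 3 livers in all 3 genes, and none of the groups overlapped. Gstm1, another glutathione transferase, held 572, 516 and 496 against 664 to 844 (median 744) (-0.51 ± 0.08, adjusted p = 0.00061). Cyp2f2, a P450 of periportal hepatocytes, held 92.9, 142 and 100.5 against 142 to 211 (median 201) (-0.81 ± 0.16, adjusted p = 0.00402), where the groups overlapped through livers 5 and 16 and the call was lost without liver 3 (adjusted p = 0.06). The list kept 4 calls without liver 3, 12 without liver 36, 22 without liver 16 and 0 on the spike-in scale. Several P450, carboxylesterase and glutathione transferase genes are sex-biased in mouse liver, and the sex-linked pattern was present in the same 3 livers.

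Targets of NRF2, the factor that answers oxidants and electrophiles, were lower in 7 of 23 cases and higher in 0 (5 and 0 in edgeR, median -0.14). The lower genes were 30.4% of those tested, against 2.99% of all genes. Ugdh, which makes UDP-glucuronate for conjugation, held 41.9, 31.3 and 36.4 CPM against 51.9 to 66.6 (median 61.5) (-0.71 ± 0.10, adjusted p = 0.000154). Controls held 26.6 to 36.1, so the higher dose overlapped them or lay just above, and the lower dose lay above both. Gstm4, a glutathione transferase, held 11.6, 9.17 and 9.84 against 13.4 to 20.7 (median 17.4) (-0.69 ± 0.14, adjusted p = 0.00371), with controls at 7.94 to 12.1. Ephx1, an epoxide hydrolase, held 55.2, 58.5 and 53.7 against 74.7 to 86.8 (median 81.6) (-0.54 ± 0.08, adjusted p = 0.000306), with controls at 61.5 to 79.4, and Gclm, a subunit of the enzyme that starts glutathione synthesis, held 28.4, 36.1 and 33.2 against 39.7 to 52.3 (median 44.5) (-0.45 ± 0.10, adjusted p = 0.00949), with controls at 31.7 to 40.6. No group of 3 overlapped with its group of 8. Without liver 3 the call for Gclm was lost (adjusted p = 0.121). The list held 4 calls without liver 36 and 0 on the spike-in scale.

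Lipid synthesis and breakdown both held lower genes. Of 24 fatty acid synthesis genes 7 were lower and 0 higher (5 and 0 in edgeR; median -0.35). Me1, the malic enzyme that supplies NADPH, held 19.7, 23.4 and 18.7 CPM against 35.3 to 40.02 (median 37.7) (-0.83 ± 0.12, adjusted p = 0.000148), and Fasn, the fatty acid synthase, 10.6, 14.2 and 10.3 against 15.2 to 21.2 (median 15.8) (-0.48 ± 0.11, adjusted p = 0.0109). The desaturase Fads1 held 35.1, 45.9 and 39.3 against 46.97 to 54.2 (median 49.7) (-0.31 ± 0.06, adjusted p = 0.00374). Liver 16 was nearest to the lower dose in the 3 genes, and the groups did not overlap. Without liver 3 the calls for Fasn (adjusted p = 0.104) and Fads1 (adjusted p = 0.0752) were lost, and without liver 36 that for Fasn (adjusted p = 0.0955). The list kept 1 call without liver 3 and 2 without liver 36, had 10 without liver 16, 13 without controls 28 and 29, 4 without livers 4 and 5 and 0 on the spike-in scale, and numbered 14 in limma voom. Of 38 fatty acid oxidation genes 5 were lower and 0 higher (5 and 0 in edgeR; median -0.22). Fabp1, the fatty acid carrier of hepatocytes, was at 6338, 8373 and 6987 against 8518 to 11044 (median 10325) (-0.49 ± 0.14, adjusted p = 0.0413), the mitochondrial acyl transferase Cpt2 at 39.4, 53.4 and 51.5 against 58.2 to 74.6 (median 63.5) (-0.42 ± 0.11, adjusted p = 0.0278), and the peroxisomal enzyme Hsd17b4 at 33.9, 42.6 and 36.9 against 43.3 to 53.99 (median 46.5) (-0.32 ± 0.08, adjusted p = 0.0154). Each of these 3 calls was lost without liver 3 (adjusted p = 0.281, 0.324 and 0.172) or liver 36 (adjusted p = 0.148, 0.0582 and 0.0788).

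Bile acid genes were lower in 6 of 25 cases and higher in 0 (5 and 0 in edgeR; median -0.18). Cyp8b1, the sterol hydroxylase that sets the share of cholic acid, held 28.7, 34.9 and 26.4 CPM against 44.8 to 66.9 (median 52.2) (-0.85 ± 0.14, adjusted p = 0.000826). Amacr, a peroxisomal racemase, held 16.2, 22.3 and 20.2 against 24.2 to 29.8 (median 26.8) (-0.46 ± 0.08, adjusted p = 0.00157), and Baat, which joins bile acids to taurine and glycine, held 50.8, 48.6 and 56.4 against 57.3 to 70.9 (median 68.2) (-0.35 ± 0.09, adjusted p = 0.0158). The groups of the 3 genes did not overlap, and the call for Baat was lost without liver 3 (adjusted p = 0.109) or liver 16 (adjusted p = 0.0717). The 25 tested genes of this list are in none of the lists of sex-biased or sex-linked genes. The sex-linked pattern was present in the same 3 livers. Cholesterol synthesis moved the other way, with 4 of 24 genes higher and 0 lower (4 and 0 in edgeR), although the list's median changed sign with the scale (0.07 by TMM, -0.04 by spike-ins). Cyp51, the lanosterol demethylase, held 19.7, 24.4 and 26.2 against 14.9 to 18.6 (median 17.5) (0.42 ± 0.09, adjusted p = 0.00543), and Lss, the lanosterol synthase, 5.27, 2.60 and 4.88 against 1.56 to 2.65 (median 1.86) (0.78 ± 0.15, adjusted p = 0.00285). The squalene epoxidase Sqle held 18.6, 18.9 and 23.01 against 14.7 to 18.6 (median 15.04) (0.36 ± 0.09, adjusted p = 0.0133), so its groups touched, with liver 31 highest at the lower dose. Calls for Cyp51 (adjusted p = 0.0724) and Sqle (adjusted p = 0.168) were lost without liver 36, and that for Lss without liver 3 (adjusted p = 0.0565). Without liver 3 there were 2 cholesterol synthesis calls and without liver 36 there was 1, and bile acid calls numbered 2 without liver 3 and 3 with only the 11 libraries compared. Both lists held 0 calls on the spike-in scale.

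Hepatocyte marker lists held 1 or 2 lower genes each. These were 14.3% of hepatocyte, 10% of periportal and 10% of pericentral markers, against 2.99% of all genes tested. The list medians were -0.12, -0.02 and 0.03, and 7 of the 14 hepatocyte markers had an unadjusted p below 0.05. Of 14 hepatocyte markers 2 were lower and 0 higher, Ttr and the tryptophan dioxygenase Tdo2, which held 175, 224 and 201 CPM against 257 to 301 (median 266) (-0.45 ± 0.06, adjusted p = 0.000176). Of 10 periportal markers 1 was lower, Cyp2f2, and of 10 pericentral markers 1 was lower, with no call in edgeR for the pericentral list. Of 22 genes of the urea cycle and amino acid breakdown 2 were lower and 0 higher. Otc, the ornithine transcarbamylase, held 44.6, 68.7 and 54.5 against 70.5 to 79.4 (median 75.2) (-0.44 ± 0.12, adjusted p = 0.032), and its call was lost without liver 3 (adjusted p = 0.333) or liver 36 (adjusted p = 0.115). Of 19 genes of gluconeogenesis and glycogen 2 were lower and 0 higher, among them the liver glycogen synthase Gys2, at 391, 479.8 and 373 against 511 to 637 (median 587) (-0.48 ± 0.11, adjusted p = 0.0109). Its call was lost without liver 3 (adjusted p = 0.0979) or liver 36 (adjusted p = 0.1). The 14 tested genes of growth hormone and insulin-like growth factor signalling, which sets the sex bias of mouse liver, held 0 calls in limma and edgeR, with 1 at an unadjusted p below 0.05 in limma.

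**Figure D4:**
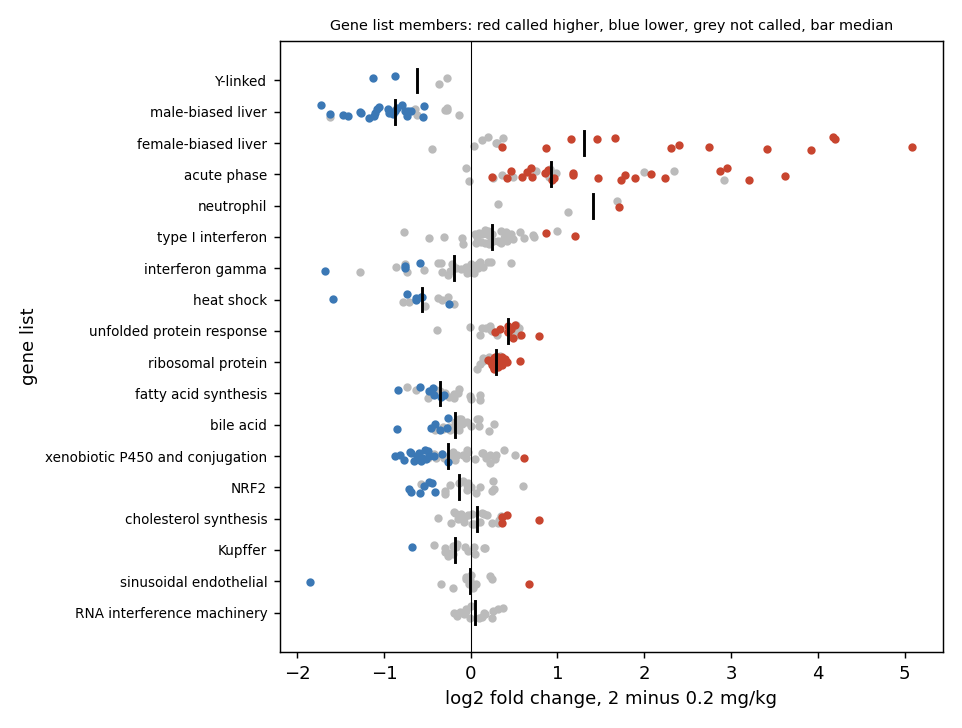
Each point is a tested member of a gene list, placed by its log2 fold change of 2 mg/kg minus 0.2 mg/kg, with red for called higher, blue for called lower, grey for not called and a black bar for the median of the list. Female-biased and acute phase genes reach furthest to the right, ribosomal protein genes form a narrow group around 0.29, and the sinusoidal endothelial list holds 1 far point to the left, Pecam1.

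Complement genes were split. Of 39 tested genes of complement and coagulation 4 were higher (10.3%) and 6 lower (15.4%), in limma and in edgeR. Over all genes tested limma called 3.01% higher and 2.99% lower. The terminal components C6 and C8b, which build the membrane attack complex, were lower. Both are also on the male-biased list, and without the sex-related lists 4 of the 37 remaining genes were lower and 4 higher. C6 held 16.6, 20.9 and 15.4 CPM against 30.8 to 42.4 (median 34.1) (-0.95 ± 0.11, adjusted p = 1.21e-05), and C8b held 38.2, 67.1 and 51.1 against 77.2 to 94.7 (median 85.3) (-0.73 ± 0.13, adjusted p = 0.00209). The kininogen gene Kng2 was higher, at 98.7, 109 and 105 against 63.3 to 76.8 (median 69.2) (0.57 ± 0.08, adjusted p = 0.000115), and so was C4bp, a soluble inhibitor of complement, at 113, 123 and 129.9 against 93.5 to 108 (median 101) (0.27 ± 0.06, adjusted p = 0.00689). All 4 had groups that did not overlap. The call for C4bp was lost without liver 36 (adjusted p = 0.0894).

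Matrix genes and others held further calls. Of 21 tested genes of the extracellular matrix list 4 were higher and 0 lower (4 and 0 in edgeR). Fn1, which encodes fibronectin, held 45.01, 52.9 and 48.7 CPM against 31.3 to 34.4 (median 33.4) (0.55 ± 0.12, adjusted p = 0.00922). The membrane protease Mmp14 held 18.4, 12.3 and 14.5 against 7.22 to 9.399 (median 8.17) (0.79 ± 0.19, adjusted p = 0.0122), and the protease inhibitor Timp1 4.17, 1.95 and 2.99 against 0.534 to 2.297 (median 0.9801) (0.93 ± 0.20, adjusted p = 0.00621). Only Timp1 had overlapping groups among the 3. Controls held 34.5 to 59.5 CPM for Fn1, 7.96 to 17.4 for Mmp14 and 0.545 to 1.24 for Timp1. They overlapped the livers at 2 mg/kg for Fn1 and Mmp14. Cd63, a membrane protein of lysosomes and exosomes, held 34.5, 15.8 and 36.5 against 9.43 to 12.9 (median 11.9) (1.18 ± 0.24, adjusted p = 0.00417), with controls at 9.13 to 22.5. Livers 3 and 36 again stood above liver 16. Acnat2, which joins fatty acids to amino acids in peroxisomes, was among the most changed genes outside the sex-biased lists, at 38.5, 22.5 and 38.1 against 6.998 to 10.9 (median 9.32) (1.72 ± 0.16, adjusted p = 8.14e-07). Sgk1, a kinase induced by glucocorticoids, held 7.795, 4.77 and 5.82 against 1.97 to 4.06 (median 2.71) (0.86 ± 0.14, adjusted p = 0.00079). Calls for Mmp14 (adjusted p = 0.15), Timp1 (adjusted p = 0.0953) and Cd63 (adjusted p = 0.0654) were lost without liver 3. Without liver 36 those for Fn1 (adjusted p = 0.0512), Mmp14 (adjusted p = 0.0571) and Cd63 (adjusted p = 0.0569) were lost.

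Among cells other than hepatocytes, sinusoidal endothelial markers held 1 higher and 1 lower gene (7.69% each). Kupffer cell markers held 1 lower gene (6.25%). Over all genes tested 3.01% were higher and 2.99% lower. Pecam1 (ENSMUSG00000020717.20), an adhesion molecule of endothelial junctions, held 8.01, 5.49 and 7.18 CPM against 11.2 to 42.8 (median 30.7) (-1.85 ± 0.35, adjusted p = 0.00236), with controls at 6.98 to 20.4. It was lower in all 3 livers than in any of the 8, although the 8 themselves ranged widely. Lyve1, a hyaluronan receptor of sinusoidal endothelium, went the other way, at 11.9, 7.22 and 7.697 against 3.42 to 6.45 (median 5.43) (0.67 ± 0.15, adjusted p = 0.00947), a call lost without liver 3 (adjusted p = 0.154). These were the calls among 13 tested sinusoidal endothelial genes, whose median was -0.00. Of 16 Kupffer cell genes 1 was lower, Slc40a1, the iron exporter, at 9.77, 14.4 and 11.8 against 16.7 to 22.1 (median 19.3) (-0.68 ± 0.11, adjusted p = 0.000849), with controls at 11.2 to 17.2. Of 6 tested T and NK cell genes 1 was higher, the protease gene Gzma, at 2.196, 1.59 and 1.37 against 0.198 to 1.31 (median 0.542) (0.78 ± 0.23, adjusted p = 0.0458; edgeR adjusted p = 0.186). Gzma reached 1 CPM in 2 of the 19 other libraries, so it passed the filter through the livers where it was high. Rgs5, a regulator of G protein signalling in pericytes and stellate cells, was the 1 called of 9 stellate and fibroblast genes, at 4.17, 4.26 and 3.59 against 2.61 to 3.33 (median 2.76) (0.38 ± 0.09, adjusted p = 0.0129). The call for Gzma was lost without any 1 of the 3 livers (adjusted p = 0.281, 0.08 and 0.0902 without 3, 16 and 36), and that for Rgs5 without liver 3 (adjusted p = 0.103) or 16 (adjusted p = 0.0557). Of 10 monocyte, 3 B and plasma cell, 4 cholangiocyte and 2 platelet genes, 0 were called by limma or edgeR, with 4, 0, 1 and 0 at an unadjusted p below 0.05, and 0 of 8 dendritic cell genes passed the filter.

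The next lists held 0 to 2 calls each, where 3.01% of all genes tested were higher and 2.99% lower. Of 13 tested p53 targets 0 were called in limma and edgeR, with 0 at an unadjusted p below 0.05 in limma. Of 10 cell cycle genes 1 was lower (10%), and of 20 clock genes 2 were lower (10%, 1 in edgeR). Of 20 nucleic acid sensor genes 1 was higher (5%, 0 in edgeR). The 28 tested genes of lipoproteins and particle uptake held 2 that were higher, Saa4 at 151, 148 and 173 CPM against 68.9 to 125 (median 100.4) (0.69 ± 0.19, adjusted p = 0.0376) and Apoc2, the activator of lipoprotein lipase, at 616, 473 and 506 against 333 to 408 (median 394) (0.45 ± 0.08, adjusted p = 0.00103). Saa4, a constitutive serum amyloid that is also in the acute phase list, lost its call without any 1 of the 3 livers (adjusted p = 0.121, 0.0607 and 0.173 without 3, 16 and 36). Of the 646 genes called in all, 309 higher and 297 lower genes were in none of the 4 sex-related lists. Those lists name only 33, 35, 4 and 9 genes, so a gene outside them may still be sex-biased.

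**Figure D5:**
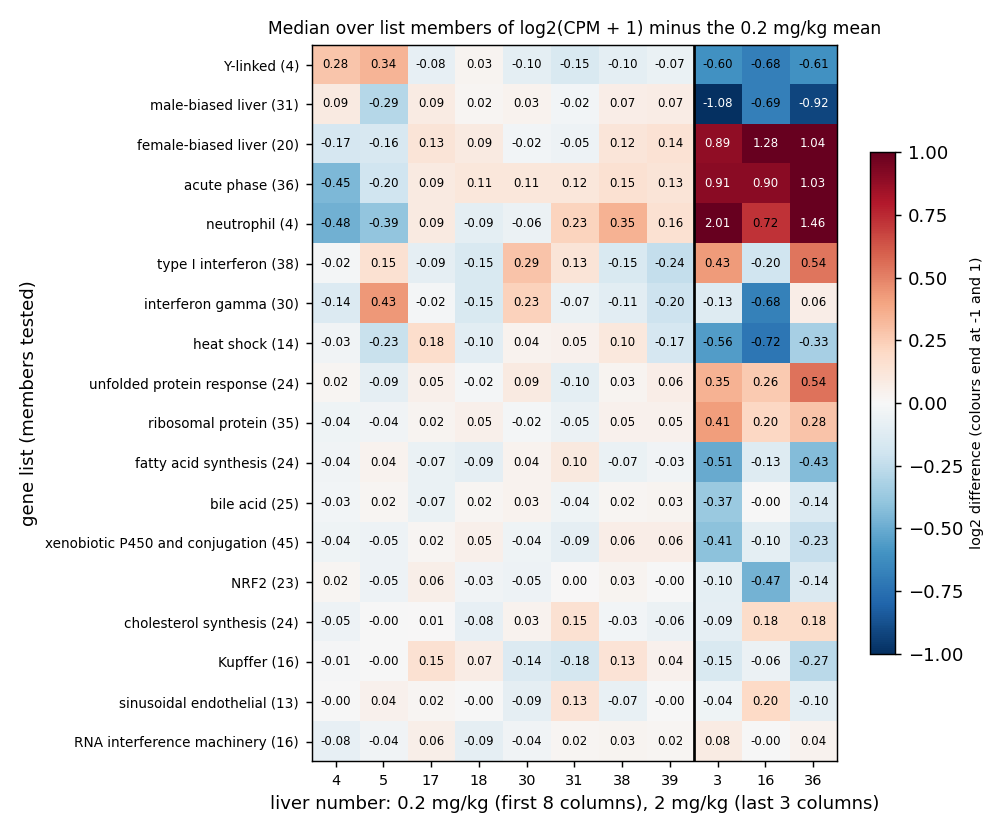
Each cell is the median over the tested members of a list of log2(CPM + 1) in 1 liver minus the mean of the 8 livers at 0.2 mg/kg; the first 8 columns are those livers and the last 3 are livers 3, 16 and 36 at 2 mg/kg. Acute phase medians were 0.91, 0.90 and 1.03 in livers 3, 16 and 36, type I interferon medians were 0.43, -0.20 and 0.54, and heat shock medians were -0.56, -0.72 and -0.33.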

How the data were processed

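The deposited table gave signal for 16469 genes and 84 ERCC spike-ins in 22 columns, 1 per liver. Per the submitters' processing notes, bcl2fastq, Trim Galore 0.6.7, STAR 2.7.9a, Salmon 1.5.2, R 4.1.1 and DESeq2 1.32.0 were used with build GRCm39. The deposited signal values were whole reads divided by 1 factor per library, and 100% of values came out whole within 0.001, so reads were recovered. No molecular barcodes were used, so copies of a molecule count separately.

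Columns were rescaled on genes to CPM with TMM factors. Genes at 1 CPM or more in at least 3 of 22 libraries were kept and log2(CPM + 1) was fitted in limma 3.58.1 with a trend over all 22 libraries, with Benjamini-Hochberg adjustment over all genes and calls at 0.05. Recovered reads were tested with edgeR 4.0.16 and, as an alternative, DESeq2 1.42.0, in R 4.3.3. Hprt, the Y-linked sum, the spike-in share and the mitochondrial share were tested by exact two-sided permutation of the 11 livers. Replicate pairs differed beyond counting, by 12.6 to 48.8 times its variance in a chi-square test over genes, so no libraries were merged. Intervals for counting error were not computed.

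The comparison, the 51 gene lists (1034 members, 980 in the table, 857 tested) and the alternatives were chosen with earlier results of these data known. Named genes are Hprt, Xist and Y-linked genes, the 10 highest and 10 lowest called genes at 5 CPM or more with groups apart and no predicted names, the same outside the sex-related lists, and up to 4 called members per list, or 2 of highest level where none was called. Some genes that this rule names are not reported here. Promoter windows are from RefSeq on GRCm38.p6, another build than the files use, matched by symbol for 10847 of the 16469 genes. Scripts were tested on simulated data.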

Additional observations from a re-analysis of the deposited data

Results flagged for a closer look

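At 0.2 mg/kg, 120 measures were searched for 1 liver far from the other 7, and 11 were found. The limit used gives about 1 in 20 by chance for a single measure. Most measures were genes named in the text, which were picked from these data and are not independent. The count of 11 was therefore not tested against chance. Liver 5 accounted for 6 of the 11, liver 4 for 4 and liver 31 for 1. Liver 5 was lowest in Mup7 (4168 CPM, next 7621), Mup14 (25247, next 36923), Cyp7b1 (36.3, next 56.8) and Cyp2f2 (141.6, next 193.6). It was highest in Gbp10 (9.51, next 4.68) and in Cxcl9 (121.3, next 53.7). Liver 4 was lowest in the acute phase genes Apcs (69.9, next 136.7) and Hpx (1094, next 1489.9) and in Apoc2 (333.2, next 373.8), and highest in Slco1a1 (41.01, next 33.5). Liver 31 was highest in Sqle (18.6, next 15.5). Livers 4 and 5 share neighbouring numbers with liver 3 at 2 mg/kg, and the difference between liver 3 and their mean was the largest of the 3 such differences for Saa3 (5.16 against 3.33 and 2.10), Lcn2 (5.73 against 2.80 and 3.19) and Orm2 (4.55 against 2.81 and 2.16) on the log2 scale. The cause was not tested.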

How the results depend on the processing

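Counts of genes called were 23 higher and 12 lower on the spike-in scale, and 167 and 137 at a limit of 0.01. Leaving out 1 liver at a time gave 140 to 374 higher and 89 to 457 lower genes, lowest without liver 3 and highest without liver 16; the cause was not tested. The spike-in share kept no direction, at 0.598 percentage points over all livers and -0.176 (without liver 16) to 1.21 (without liver 3) with 1 left out. The mitochondrial share difference was 0.958 to 1.31 points over those fits, and its exact p was above 0.05 in 10 of them. The Hprt level and the Y-linked sum kept direction and call in every fit that left out 1 liver. Of 117 genes named in the text, none changed sign in any setting run, while 88 lost their call on the spike-in scale, 43 without liver 3, 32 without liver 36, 31 at a limit of 0.01 and 15 without livers 4 and 5; the cause was not tested. No paired analysis was possible because the groups share no replicate number; a term for the animal number range ended 3 calls and added 2. With 3 livers at 2 mg/kg, differences of a size near the spread between livers would be missed, and genes under 1 CPM were not tested.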
